A study of Mus musculus with 4 samples.

Results

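The 6 genes of the megalin and cubilin uptake system, Lrp2, Cubn, Amn, Dab2, Lrpap1 and Clcn5, were followed in mouse kidney nuclei. They were taken by symbol from the gene list of the deposited matrices, and all 6 were found among 27998 genes. The kidneys came from C57BL/6 mice at post natal week 22. Of 4 libraries of single nuclei, 2 were made from losartan-treated kidneys and 2 from untreated kidneys. Losartan blocks the type 1 receptor of angiotensin II. The labels used here give no genetic change, disease model, sex, dose or length of treatment. Nothing in them says that the libraries of a group came from separate animals, so p-values measure only the spread between these libraries, which may be technical.

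The proximal tubule reclaims filtered proteins, vitamins and hormones by receptor-mediated endocytosis at its brush border. Megalin, encoded by Lrp2, is a giant receptor of the LDL receptor family, and it works with cubilin, encoded by Cubn, which has no membrane-spanning part of its own. Amn encodes amnionless, which anchors cubilin in the membrane. Dab2 is an adaptor that binds the tail of megalin and links it to clathrin coats. Lrpap1 encodes the receptor-associated protein, a chaperone that accompanies megalin through the endoplasmic reticulum. Clcn5 encodes a chloride and proton exchanger of endosomes, which is mutated in human Dent disease with loss of small proteins into the urine.

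The promoters of Lrp2, Cubn and Dab2 are shown because the adaptor differed more between segments than the 2 receptors did in the nuclei below. RefSeq promoters on build GRCm38.p6, each with 250 bases before and 50 bases after a start, matched all 6 genes and gave 8 promoters. Lrp2 lies on the minus strand of chromosome 2 from 69424340 to 69586065, and its promoter is chr2:69585980-69586279. Cubn lies on the minus strand of the same chromosome from 13276338 to 13491813, and its promoter is chr2:13491827-13492126. Dab2 lies on the plus strand of chromosome 15 from 6299788 to 6440712, with one promoter, printed here, at chr15:6299539-6299838 and another inside the gene at chr15:6386498-6386797. Capitals mark CAAAG, a half-site of the factor HNF4, or its reverse complement CTTTG.
Lrp2: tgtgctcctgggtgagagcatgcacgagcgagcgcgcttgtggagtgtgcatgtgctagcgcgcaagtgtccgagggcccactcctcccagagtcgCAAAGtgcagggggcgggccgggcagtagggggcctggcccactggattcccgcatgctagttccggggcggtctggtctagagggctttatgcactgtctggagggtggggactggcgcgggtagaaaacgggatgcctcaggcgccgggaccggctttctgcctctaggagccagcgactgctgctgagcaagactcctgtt
Cubn: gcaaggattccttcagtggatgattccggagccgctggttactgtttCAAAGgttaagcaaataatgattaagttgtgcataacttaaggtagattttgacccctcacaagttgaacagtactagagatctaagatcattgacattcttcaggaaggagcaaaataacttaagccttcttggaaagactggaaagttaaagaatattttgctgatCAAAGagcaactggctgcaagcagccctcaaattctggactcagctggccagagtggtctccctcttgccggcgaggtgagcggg
Dab2, promoter at the outer start: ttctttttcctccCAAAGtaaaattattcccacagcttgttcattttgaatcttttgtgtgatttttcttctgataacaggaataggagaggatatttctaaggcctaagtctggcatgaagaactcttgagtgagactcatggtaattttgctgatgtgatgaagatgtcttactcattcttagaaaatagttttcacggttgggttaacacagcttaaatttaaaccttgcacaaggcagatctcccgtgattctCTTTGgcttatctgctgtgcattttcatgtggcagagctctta
CAAAG and the TATA box TATAAA were searched on both strands, and no match overlapped another. The CAAAG half-site was found once in the Lrp2 promoter, at position -154 from the start, and at -203 and -35 in the Cubn promoter. In the printed Dab2 promoter it was found at -237 and, on the other strand, at 7, and in the promoter inside the gene it was not found. It is a common motif, present in 53.9% of 32851 promoters of this length. TATAAA was found in 1 of the 8, a Clcn5 promoter, at -172, against 13.6% of all promoters. These matches are descriptions of the letters only.

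The other 3 genes lie at chromosome 12 from 111271095 to 111276426 on the plus strand for Amn, chromosome 5 from 35091501 to 35105766 on the minus strand for Lrpap1, and chromosome X from 7153810 to 7319358 on the minus strand for Clcn5. Counting was not stated to use strand. Dab2 overlaps the antisense gene Gm16311, which was counted separately, with 19697 unique molecular identifiers (UMIs, each 1 captured RNA molecule) in healthy tubule nuclei against 160133 of Dab2. Reads of this pair cannot be told apart without strand, so the level of Dab2 is uncertain to that extent.

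The libraries held 58820323 and 59078762 UMIs in the losartan group and 42290414 and 54971880 in the untreated group. After filtering, 9043 and 9386 nuclei remained in the losartan libraries and 8459 and 9043 in the untreated libraries, and 70 to 81 barcodes of each library also occurred in another library. Proximal tubule nuclei made up 56.4% and 45.5% of nuclei in the losartan libraries, against 39.2% and 28.9% in the untreated libraries. They were split into S1, S2 and S3, the successive segments from the glomerulus onward, and injured nuclei, by 19 sub-clusters named from marker genes. Healthy tubule nuclei, the sum of S1, S2 and S3, numbered 3062 and 2898 in losartan libraries and 2389 and 1769 in untreated libraries. Injured nuclei numbered 54 and 193 in losartan libraries and 425 and 448 in untreated libraries. Sub-clusters without a clear segment held 38.9% and 27.6% of tubule nuclei in losartan libraries, against 15.04% and 15.28% in untreated libraries, and stand outside the segment levels.

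The defining markers were high in the segments named from them. The S1 sodium and lactate transporter gene Slc5a12 reached 5875 and 6232 UMIs per 1000000 UMIs of the group (CPM) in S1 of losartan libraries and 4676 and 4745 CPM in S1 of untreated libraries, and was at most 139 CPM in S3. The S3 enzyme gene Cyp7b1 lay between 1790 and 3934 CPM in S3 and was at most 62.4 CPM in S1. The 3 S2 markers summed to 1471 to 1929 CPM in S2, against 678 to 836 CPM in S1 and 204 to 218 CPM in S3. S2 nuclei also held the S1 markers, at 3669 to 3963 CPM, and the S3 markers, at 1878 to 2899 CPM. Havcr1, the kidney injury molecule gene, was at 7.37 and 89.5 CPM in injured nuclei of losartan libraries and at 88.0 and 146 CPM in those of untreated libraries, and at most 3.66 CPM in S1, S2 or S3. The value of 7.37 CPM came from a group of 54 nuclei with 271206 UMIs in all. The 8 injury markers summed to 889 and 1633 CPM in injured nuclei of losartan libraries and 2487 and 2837 CPM in those of untreated libraries, against 187 to 297 CPM in healthy tubule nuclei.

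Along the healthy tubule Dab2 differed most between segments, with high levels in S1 and S2 and low levels in S3, and the receptors differed less. Lrp2 in S3 was 0.925 to 1.17 times as high as in S1 of the same library, and Cubn 0.851 to 1.39 times. Amn and Clcn5 were lowest in S3, and Lrpap1 was highest there. Dab2 was 0.113 to 0.135 times as high in S3 as in S1 sub-clusters of the same library. Where a sub-cluster was named for a segment at a marker lead of only 0.25, which adds a sub-cluster described below to S3, this ratio was 0.446 and 0.319 in losartan libraries and 0.174 and 0.188 in untreated libraries.

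**Figure D1:**
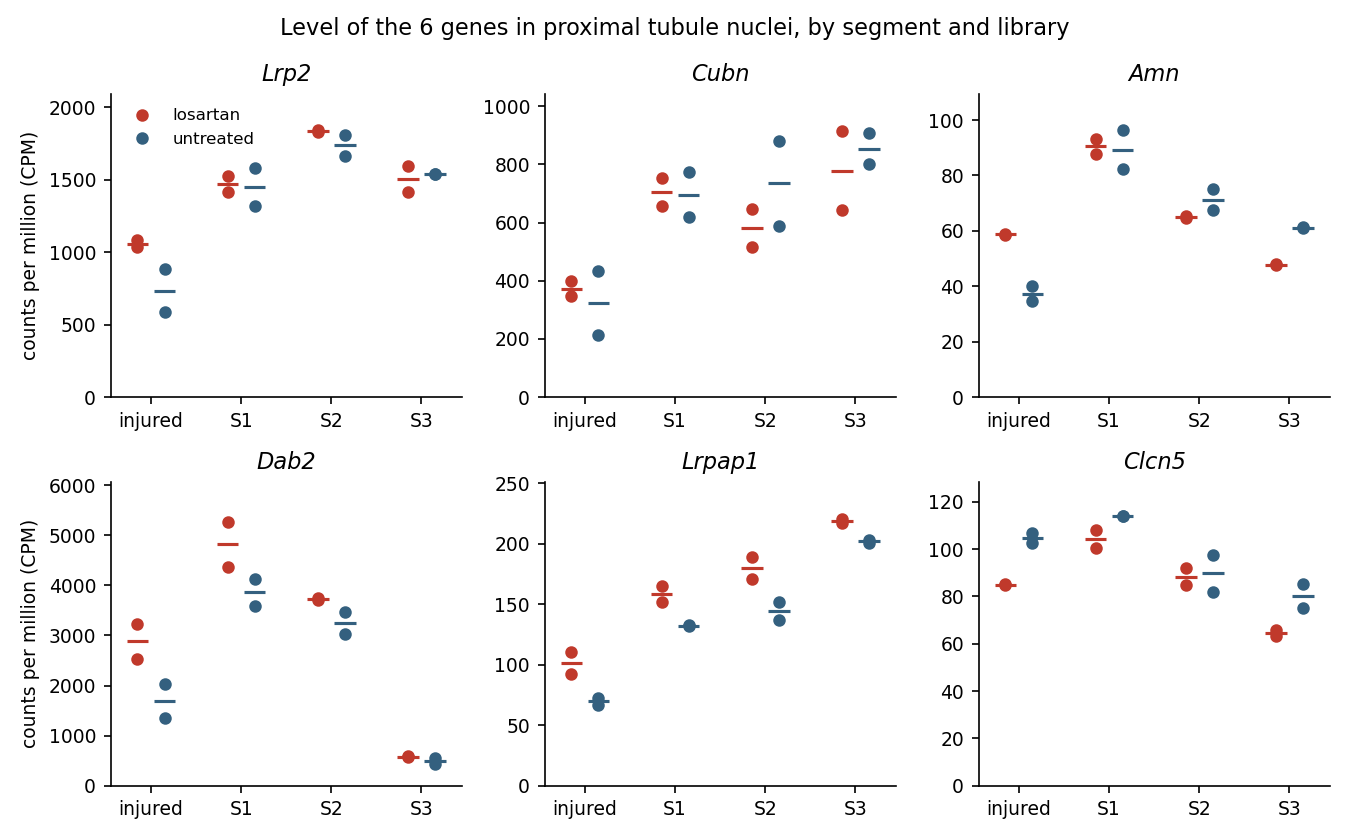
Level of each gene in CPM (y axis, from 0) in injured, S1, S2 and S3 nuclei by sub-cluster (x axis); each point is 1 library, losartan red and left, untreated blue and right, with a line at the mean of the 2 libraries. Dab2 is low in S3 in all 4 libraries, and all genes but Clcn5 are lower in injured nuclei than in S2.

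Lrp2 stood in S1 at 1528 and 1414 CPM, in S2 at 1830 and 1840 CPM and in S3 at 1414 and 1595 CPM in the losartan libraries. In the untreated libraries it stood in S1 at 1317 and 1578 CPM, in S2 at 1810 and 1662 CPM and in S3 at 1538 and 1536 CPM. S2 was the highest segment in 4 of 4 libraries, while the order of S1 and S3 changed between libraries. Cubn in S3 was 642 and 914 CPM in losartan libraries and 908 and 800 CPM in untreated libraries, and in S1 755 and 658 CPM in losartan libraries and 773 and 619 CPM in untreated libraries. The libraries overlapped between these segments, and S3 was above S1 in 3 of 4. In S2 Cubn was 515 and 646 CPM in losartan libraries and 879 and 589 CPM in untreated libraries. Within a library, Cubn in S3 was 1.03 to 1.41 times its level in S2, and Lrp2 in S3 was 0.773 to 0.924 times its level in S2, each in the same direction in 4 of 4.

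Dab2 stood in S1 at 5273 and 4365 CPM, in S2 at 3753 and 3706 CPM and in S3 at 594 and 571 CPM in the losartan libraries. In the untreated libraries it stood in S1 at 4136 and 3584 CPM, in S2 at 3475 and 3037 CPM and in S3 at 560 and 438 CPM. The order S1, S2, injured, S3 from high to low held in 4 of 4 libraries. An S1 nucleus carried 26.2 and 21.8 Dab2 UMIs on average in losartan libraries and 19.4 and 21.8 in untreated libraries. An S3 nucleus carried 3.27 and 3.01 in losartan libraries and 2.64 and 3.0 in untreated libraries. The antisense Gm16311 was also low in S3, at 59.3 and 51.8 CPM in losartan libraries and 42.4 and 43.6 CPM in untreated libraries, against 224 to 641 CPM in S1.

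Free RNA also gives UMIs in nuclei that do not express a gene, so the low level of Dab2 in S3 was set beside that of other classes. In S3 it was 18.3% of its level in the healthy tubule as a whole, with a range of 16.8% to 20.6% over the 4 libraries. In endothelium it was 13.2%, with a range of 9.0% to 16.3%, where 9 general tubule markers had a median of 12.4%. In the thick ascending limb it was 5.62%, beside 8.47% for those markers. Mural and mesangial nuclei lay above S3, at 25.4% beside 26.3% for those markers. So did macrophages and dendritic cells, at 21.6% beside 12.1%, and lymphocytes, at 19.9% beside 19.1%. In the other classes outside the proximal tubule Dab2 was below its S3 level. The part of free RNA in the S3 level was not tested. With each nucleus thinned to 1000 UMIs, the share of S3 nuclei with a Dab2 UMI was 37.7% and 35.7% in losartan libraries and 38.4% and 28.7% in untreated libraries. The same share in endothelium was 35.8% and 25.1% in losartan libraries and 30.5% and 19.8% in untreated libraries, at median depths of 2481 to 2884 UMIs against 4056 to 5705 in S3. The share in S3 was above the endothelial one in each library, by little in losartan library 1, and in S1 it was 91.4% to 97.5%.

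The 3 remaining genes changed less between segments than Dab2, and in the same direction from S1 to S3 in 4 of 4 libraries. Their level in S3 was 0.509 to 0.741 times that in S1 for Amn, 1.34 to 1.54 times for Lrpap1 and 0.607 to 0.746 times for Clcn5. Amn stood in S1 at 93.3 and 87.8 CPM, in S2 at 64.5 and 65.3 CPM and in S3 at 47.5 and 47.9 CPM in the losartan libraries, and in the untreated libraries in S1 at 82.2 and 96.5 CPM, in S2 at 67.6 and 74.9 CPM and in S3 at 60.9 and 61.5 CPM. Amn was highest in S1 and lowest in S3 of the 3 segments in 4 of 4 libraries. Lrpap1 stood in S1 at 165 and 152 CPM, in S2 at 189 and 171 CPM and in S3 at 221 and 218 CPM in the losartan libraries, and in the untreated libraries in S1 at 132 and 133 CPM, in S2 at 137 and 152 CPM and in S3 at 204 and 201 CPM. Lrpap1 was lowest in S1 and highest in S3 in 4 of 4 libraries, and the S3 values did not overlap with the S1 values. Clcn5 ranged from 100 to 114 CPM in S1, 81.9 to 97.7 CPM in S2 and 63.3 to 85.1 CPM in S3 over the 4 libraries.

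Clusters were made from variable genes, with the 6 genes left out. Segment differences were tested on another grouping, based on the markers alone, none of which is among the 6 genes. Each of 15300 tubule nuclei was assigned by its markers. This put 4362 nuclei in S1, 4949 in S2, 4413 in S3 and 1576 in the injured class. Summed counts were compared within libraries by edgeR's quasi-likelihood test with the library as a block and Benjamini-Hochberg adjustment over all genes. Of 14075 genes, 38.4% passed an adjusted p of 0.05 between S3 and S1, 19.8% higher and 18.7% lower, and 5 of the 6 genes did, 2 higher and 3 lower. Between S2 and S1 the share was 20.7% and 2 of the 6 passed, and between S3 and S2 it was 21.6% and 4 of the 6 passed. Calls of this kind were thus common among all genes.

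**Figure D2:**
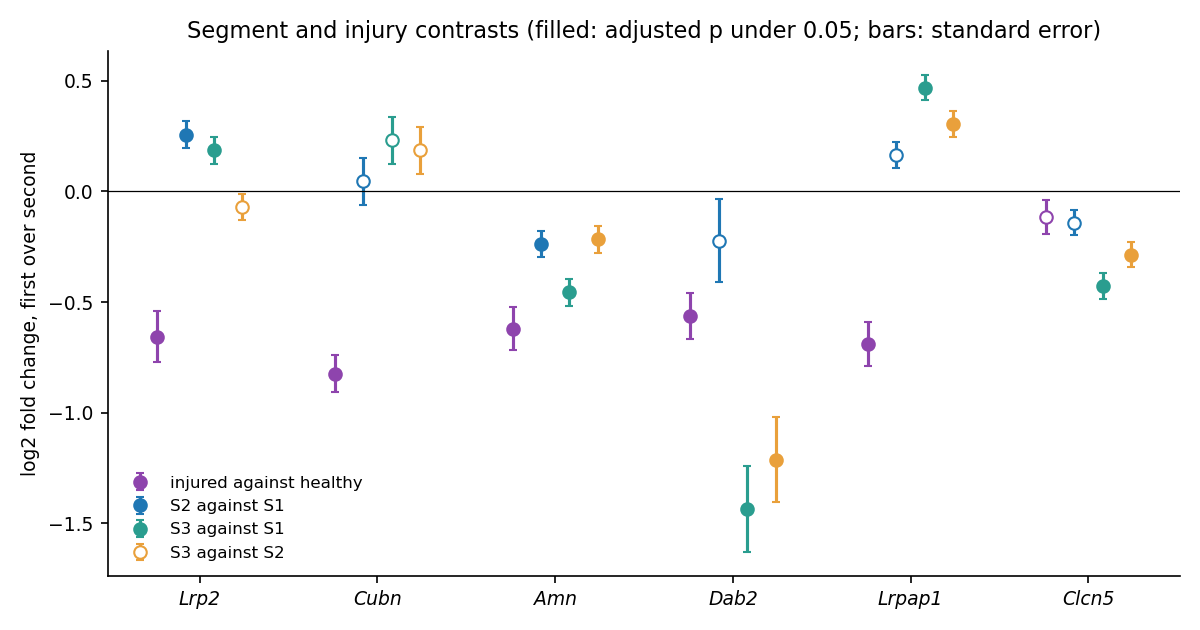
log2 fold change (y axis) of each gene (x axis) between marker-assigned groups of tubule nuclei over 4 libraries, with standard errors as bars; filled points passed an adjusted p of 0.05 in edgeR's quasi-likelihood test. Dab2 has the lowest values, at -1.44 for S3 against S1, and the injured contrast is below 0 and filled for all genes but Clcn5.

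In S3 against S1, Dab2 fell by 1.44 on the log2 scale (SE 0.19, adjusted p = 7.54e-05, edgeR quasi-likelihood), and was lower in S3 in 4 of 4 libraries. The marker-assigned levels were 2466 and 1846 CPM in S3 of losartan libraries and 889 and 1036 CPM in S3 of untreated libraries, against 4686 and 3969 CPM in S1 of losartan libraries and 4011 and 3660 CPM in S1 of untreated libraries. With sub-clusters in place of marker assignment the fold change was -2.99. The groupings differ in which nuclei S3 holds, since 2282 of the marker-assigned S3 nuclei were also in S3 sub-clusters, 713 were in S2 and 1395 were unresolved. One unresolved sub-cluster of 1199 nuclei scored higher for S3 markers (0.589) than for S2 markers (0.282), yet had 3511 CPM of Dab2. For S3 markers it scored below the S3 sub-clusters, which stood at 1.86 and 1.34. It held 843 and 247 nuclei in the losartan libraries and 73 and 36 in the untreated libraries, so that S3 levels of Dab2 depend on whether it is counted. With it in S3, Dab2 in S3 came to 2353 and 1393 CPM in losartan libraries and 720 and 675 CPM in untreated libraries.

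Lrpap1 rose in S3 against S1 by 0.47 on the log2 scale (SE 0.06, adjusted p = 3.94e-05) and against S2 by 0.31 (SE 0.06, adjusted p = 0.00217). In S3 against S1, Amn fell by 0.46 (SE 0.06, adjusted p = 7.17e-05) and Clcn5 fell by 0.43 (SE 0.06, adjusted p = 8.07e-05), both lower in 4 of 4 libraries. Lrp2 was higher in S2 than in S1 by 0.26 (SE 0.06, adjusted p = 0.00871), in 4 of 4 libraries, and higher in S3 than in S1 by 0.19 (SE 0.06, adjusted p = 0.0269). The second of these was not called with sub-clusters, at 0.07 with adjusted p = 0.496, nor without losartan replicate 1, losartan replicate 2 or untreated replicate 1, with adjusted p between 0.0685 and 0.151. Cubn differed by 0.23 between S3 and S1 (SE 0.11, adjusted p = 0.107), and passed without losartan replicate 1, at 0.37 with adjusted p = 0.00542. The further calls were Amn in S2 against S1, at -0.24 (adjusted p = 0.0123), and in S3 against S2, at -0.22 (adjusted p = 0.0231), Dab2 in S3 against S2, at -1.21 (adjusted p = 6.46e-04), and Clcn5 in S3 against S2, at -0.29 (adjusted p = 0.00336). Of these, Amn in S2 against S1 was not called without losartan replicate 1 (adjusted p = 0.0747), and Amn in S3 against S2 was called in none of the fits by DESeq2 or without losartan replicate 1, losartan replicate 2 or untreated replicate 1 (adjusted p 0.0562 to 0.202). Lrp2 in S2 against S1 was not called without losartan replicate 2 (adjusted p = 0.109) or untreated replicate 1 (adjusted p = 0.0601).

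The sub-clusters, which were made from variable genes with the 6 genes left out, gave other calls. In S3 against S2 all 6 genes were called, beside 33% of genes, with Lrp2 at -0.22 (adjusted p = 0.0380) and Cubn at 0.33 (adjusted p = 0.0338) added. In S2 against S1 the calls were 4, beside 27.2% of genes, with Dab2 at -0.30 (adjusted p = 0.00559) and Clcn5 at -0.29 (adjusted p = 0.0106) added. In S3 against S1 they were 4, beside 45.4% of genes, without Lrp2.

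In injured tubule nuclei the receptors, the adaptor and the chaperone were all lower than in healthy nuclei, while Clcn5 was about level. Over the sub-clusters, Cubn in injured nuclei was at a median of 0.531 times its level in healthy nuclei of the same library. The ratio was 0.492 for Lrpap1, 0.580 for Lrp2, 0.689 for Amn, 0.781 for Dab2 and 1.06 for Clcn5. The ratio was below 1 in 4 of 4 libraries for all but Clcn5, which was above 1 in 3 of 4. Healthy nuclei pool the segments, and injured nuclei differed in segment markers. S1 markers summed to 3327 to 5533 CPM in injured and 4424 to 5922 CPM in healthy nuclei, and S3 markers to 805 to 1704 against 3221 to 4392 CPM. Against S1 alone, every gene, Clcn5 included, was lower in injured nuclei in each library. The part of segment mix in these ratios and in the contrast below was not tested.

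Lrp2 was at 1084 and 1033 CPM in injured nuclei of losartan libraries and at 882 and 586 CPM in injured nuclei of untreated libraries, against 1649 and 1673 CPM in healthy nuclei of losartan libraries and 1624 and 1615 CPM in healthy nuclei of untreated libraries. The injured and healthy values did not overlap, and untreated library 2 was lowest. Cubn was at 347 and 400 CPM in injured nuclei of losartan libraries and 435 and 213 CPM in those of untreated libraries, against 615 and 714 CPM in healthy nuclei of losartan libraries and 866 and 648 CPM in those of untreated libraries. These did not overlap either. Dab2 was at 3234 and 2526 CPM in injured nuclei of losartan libraries and 2038 and 1345 CPM in those of untreated libraries, against 3535 and 3109 CPM in healthy nuclei of losartan libraries and 2719 and 2485 CPM in those of untreated libraries. Here the ranges of injured and healthy nuclei overlapped between libraries, and the difference appeared within each library.

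On the marker-assigned nuclei, 28.6% of 14446 genes passed between injured and healthy nuclei, 14.7% higher and 13.9% lower, and 5 of the 6 genes passed, all lower. Cubn fell by 0.82 on the log2 scale (SE 0.08, adjusted p = 2.86e-05, edgeR quasi-likelihood). Lrpap1 fell by 0.69 (SE 0.10, adjusted p = 2.89e-04) and Lrp2 by 0.66 (SE 0.12, adjusted p = 0.00122). Amn fell by 0.62 (SE 0.10, adjusted p = 5.26e-04) and Dab2 by 0.56 (SE 0.10, adjusted p = 0.00165). Clcn5 differed by -0.11 (SE 0.08, adjusted p = 0.322). The 5 genes were lower in 4 of 4 libraries and were called under each alternative run for this contrast. General tubule markers were lower too: over the sub-clusters, 9 of them had a median of 47.2% of their healthy level in injured nuclei, with a range of 30.7% to 113%, beside 48.9% for Cubn, 54.5% for Lrp2, 75.5% for Dab2 and 106% for Clcn5. The part of this general difference in the result was not tested.

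Nuclei with both receptors were fewer among injured nuclei. Thinned to 1000 UMIs, 20.4% and 14.0% of injured nuclei of losartan libraries and 18.8% and 5.13% of those of untreated libraries held both Lrp2 and Cubn UMIs, against 33.4% and 36.1% of healthy nuclei of losartan libraries and 39.8% and 30.9% of those of untreated libraries. In endothelium, used as a background class, it was 1.32% and 1.64% in losartan libraries and 2.19% and 0.222% in untreated libraries. Unthinned, 97.7% of healthy nuclei held an Lrp2 UMI as a mean over libraries, against 74.5% at 1000 UMIs. The exact 95% binomial interval of the smallest group, the 54 injured nuclei of losartan library 1, ran from 10.6% to 33.5%, and such intervals cover counting error only.

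Under losartan, none of the 6 genes passed the test in any group of tubule nuclei, although Dab2 and Lrpap1 were higher in both losartan libraries in each group. In healthy tubule nuclei 0.0547% of 14634 genes passed, 8 in all, with 1742 at an unadjusted p under 0.05. The shares were 0.0338% in S1, 0.165% in S2, 0.0668% in S3 and 0.0517% in injured nuclei, and no member was among the called genes. With 2 libraries a group, an exact permutation test cannot go below p = 0.333.

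**Figure D3:**
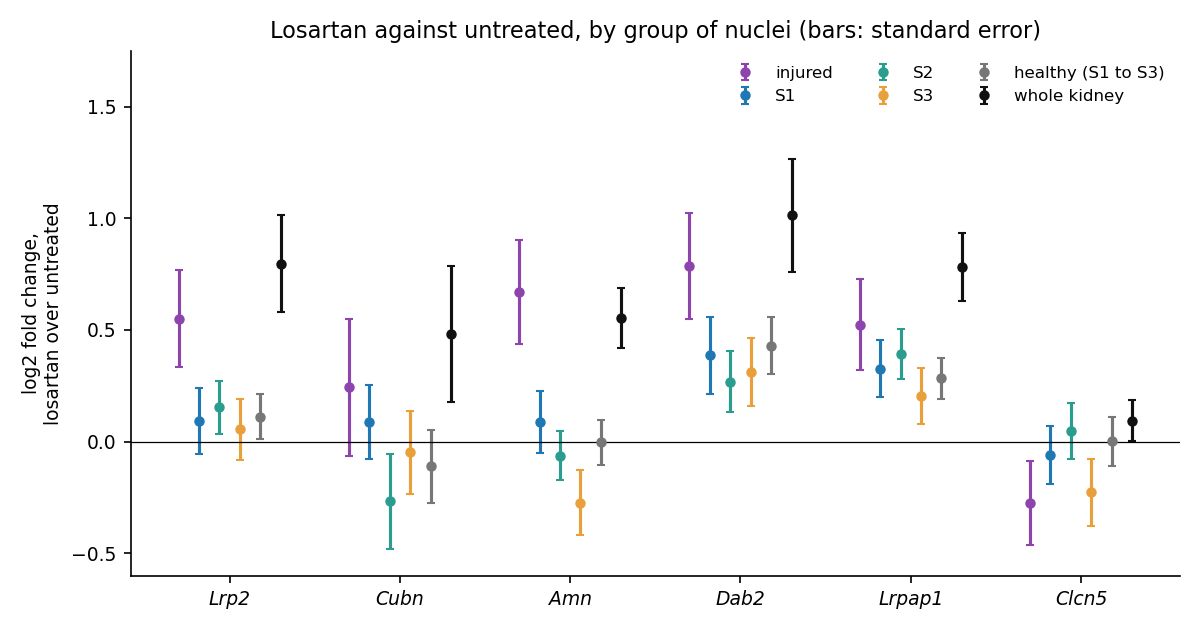
log2 fold change of losartan over untreated (y axis) for each gene (x axis) in injured, S1, S2, S3 and healthy tubule nuclei and in the whole kidney, from edgeR on summed counts of 2 libraries a group, with standard errors as bars. Dab2 and Lrpap1 lie above 0 in every group, none of the points for tubule groups or the whole kidney passed adjustment, and the whole-kidney points come from libraries that also differed in their share of tubule nuclei.

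Dab2 in healthy tubule nuclei was at 3535 and 3109 CPM in losartan libraries and 2719 and 2485 CPM in untreated libraries. The groups did not overlap, and the log2 fold change was 0.43 (SE 0.13, adjusted p = 0.286, edgeR quasi-likelihood). By segment it was 0.39 in S1 (SE 0.17, adjusted p = 0.469), 0.27 in S2 (SE 0.14, adjusted p = 0.437), 0.31 in S3 (SE 0.15, adjusted p = 0.679) and 0.79 in injured nuclei (SE 0.24, adjusted p = 0.295). S1, where Dab2 was highest, held 989 and 756 of 3062 and 2898 healthy nuclei in losartan libraries. It held 478 and 336 of 2389 and 1769 in untreated libraries. The part of this difference in segment mix in the healthy fold was not tested. The antisense Gm16311 was at 497 and 374 CPM in healthy nuclei of losartan libraries and at 284 and 276 CPM in those of untreated libraries, also without overlap. In S3 the fold change was 1.53 (adjusted p = 0.258) with the naming lead of 0.25, which adds the unresolved sub-cluster of 1199 nuclei. The injured group held only 54 nuclei in losartan library 1. Its 9 general tubule markers summed to 12562 and 9311 CPM in losartan libraries, against 7233 and 5450 CPM in untreated libraries, and its 7 S1 markers to 5512 and 5533 CPM in losartan libraries, against 4166 and 3327 CPM in untreated libraries. The part of these markers in the folds of injured nuclei was not tested. Without untreated replicate 1, Dab2, Lrp2 and Cubn were called in injured nuclei, at 1.13, 0.89 and 0.86 with adjusted p of 3.99e-07, 0.00462 and 0.0392 (edgeR quasi-likelihood), beside 3.5% of all genes, the lone untreated library being assumed to vary like the losartan ones. With no filter on low counts, Dab2 was called in S1 (adjusted p = 0.0296), beside 2.84% of genes, and in injured nuclei (adjusted p = 0.00102), beside 2.41%.

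Lrpap1 in healthy tubule nuclei was at 188 and 178 CPM in losartan libraries and 156 and 161 CPM in untreated libraries. Its log2 fold change was 0.28 (SE 0.09, adjusted p = 0.316), and by segment 0.33 in S1, 0.39 in S2 (SE 0.11, adjusted p = 0.198), 0.20 in S3 and 0.52 in injured nuclei (SE 0.20, adjusted p = 0.456). Lrp2 was at 1649 and 1673 CPM in healthy nuclei of losartan libraries and 1624 and 1615 CPM in those of untreated libraries, a log2 fold change of 0.11 (SE 0.10, adjusted p = 0.733). Cubn, with 615 and 714 CPM in losartan libraries and 866 and 648 CPM in untreated libraries, overlapped between the groups, with a log2 fold change of -0.11 (SE 0.16, adjusted p = 0.850).

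Amn averaged 68.2 ± 2.1 CPM in losartan and 72.1 ± 4.9 CPM in untreated healthy tubule nuclei, and Clcn5 averaged 87.4 ± 5.5 CPM in losartan and 92.0 ± 7.8 CPM in untreated nuclei (SD, n = 2 each). Both overlapped between the groups. In S3, Amn was at 47.5 and 47.9 CPM in losartan libraries and 60.9 and 61.5 CPM in untreated libraries, a log2 fold change of -0.27 (SE 0.15, adjusted p = 0.723). In injured nuclei it was at 59.0 and 58.5 CPM in losartan libraries and 34.6 and 40.1 CPM in untreated libraries, a log2 fold change of 0.67 (SE 0.23, adjusted p = 0.392). Amn in injured nuclei was above in both losartan libraries, but with marker assignment its log2 fold change was -0.16.

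Both losartan libraries lay above both untreated libraries for 3 of the 6 genes in healthy tubule nuclei (Lrp2, Dab2 and Lrpap1), beside 12.7% of all genes. The counts were 2 in S1 beside 15% of genes, 3 in S2 beside 15.3%, 2 in S3 beside 12% and 4 in injured nuclei beside 18.9%. Dab2 and Lrpap1 were among them each time. Both losartan libraries lay below for Clcn5 in S1, beside 27.5% of genes, for Amn in S2, beside 31.8%, for Amn and Clcn5 in S3, beside 27.1%, and for Clcn5 in injured nuclei, beside 23.6%. Plain CPM put the median gene of healthy tubule nuclei 0.08 lower in losartan libraries on the log2 scale, against 0.01 lower after edgeR's scaling.

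The difference between segments in the losartan fold was tested as an interaction, and none of the 6 genes passed. The share of genes that passed was 0.212% for S2 minus S1, 0.295% for S3 minus S1 and 0.835% for injured minus healthy nuclei. The lowest adjusted p among the 6 genes was 0.338, for Amn in injured minus healthy nuclei, at a log2 difference of 0.68, which was -0.052 with marker assignment. For Dab2 in S3 minus S1 the difference was -0.07, and with marker assignment it was 0.99 with adjusted p = 0.00745, beside 2.23% of genes called. Marker assignment put 1395 unresolved nuclei in S3, and their part in this difference was not tested.

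In summed counts of all nuclei, Dab2 was at 2596 and 2015 CPM in losartan libraries and 1465 and 1070 CPM in untreated libraries, and Lrp2 at 1223 and 1019 CPM in losartan libraries and 816 and 617 CPM in untreated libraries. The groups did not overlap for either gene, and 4 of the 6 genes lay above in both losartan libraries, beside 14.1% of all genes. The log2 fold changes were 1.01 for Dab2 (SE 0.25, adjusted p = 0.139), 0.80 for Lrp2 (SE 0.22, adjusted p = 0.153), 0.78 for Lrpap1 (SE 0.15, adjusted p = 0.119), 0.55 for Amn (SE 0.13, adjusted p = 0.135), 0.48 for Cubn (SE 0.30, adjusted p = 0.398) and 0.09 for Clcn5 (SE 0.09, adjusted p = 0.581). None passed, and 0 of 18402 genes did (percent called 0), with 4075 at an unadjusted p under 0.05. DESeq2 called 1654 genes, 8.99% of those tested, Lrp2, Amn, Dab2 and Lrpap1 among them. Tubule nuclei were 56.4% and 45.5% of nuclei in the losartan libraries and 39.2% and 28.9% in the untreated libraries, and within healthy tubule nuclei the folds above were smaller. In summed nuclei, fewer cells of a type and less RNA per cell cannot be told apart. Plain CPM put the median gene of the whole kidney 0.17 lower in losartan libraries on the log2 scale, against 0.01 lower after scaling, so that Clcn5, at 85.6 and 84.1 CPM in losartan libraries and 87.2 and 89.7 CPM in untreated libraries, was lower in CPM and not in the scaled fold.

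Outside the proximal tubule, Clcn5 was at its highest in intercalated cells, the acid- and base-secreting cells of the collecting duct. It reached 348 and 268 CPM there in losartan libraries and 259 and 370 CPM in untreated libraries, a mean of 345% of its healthy tubule level with a range of 299% to 382%. It stood at 128% in macrophages and dendritic cells and at 105% in the thick ascending limb. The general tubule markers had medians of 8.71%, 12.1% and 8.47% of their tubule level in these 3 classes. Clcn5 was above all 9 markers in 4 of 4 libraries in each of them. The same held in the other classes outside the proximal tubule with all 4 libraries, except mural and mesangial nuclei, with 2 of 4. In those other classes Clcn5 was at 110% in lymphocytes, 106% in urothelium and 48.6% to 90.0% in the rest.

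**Figure D4:**
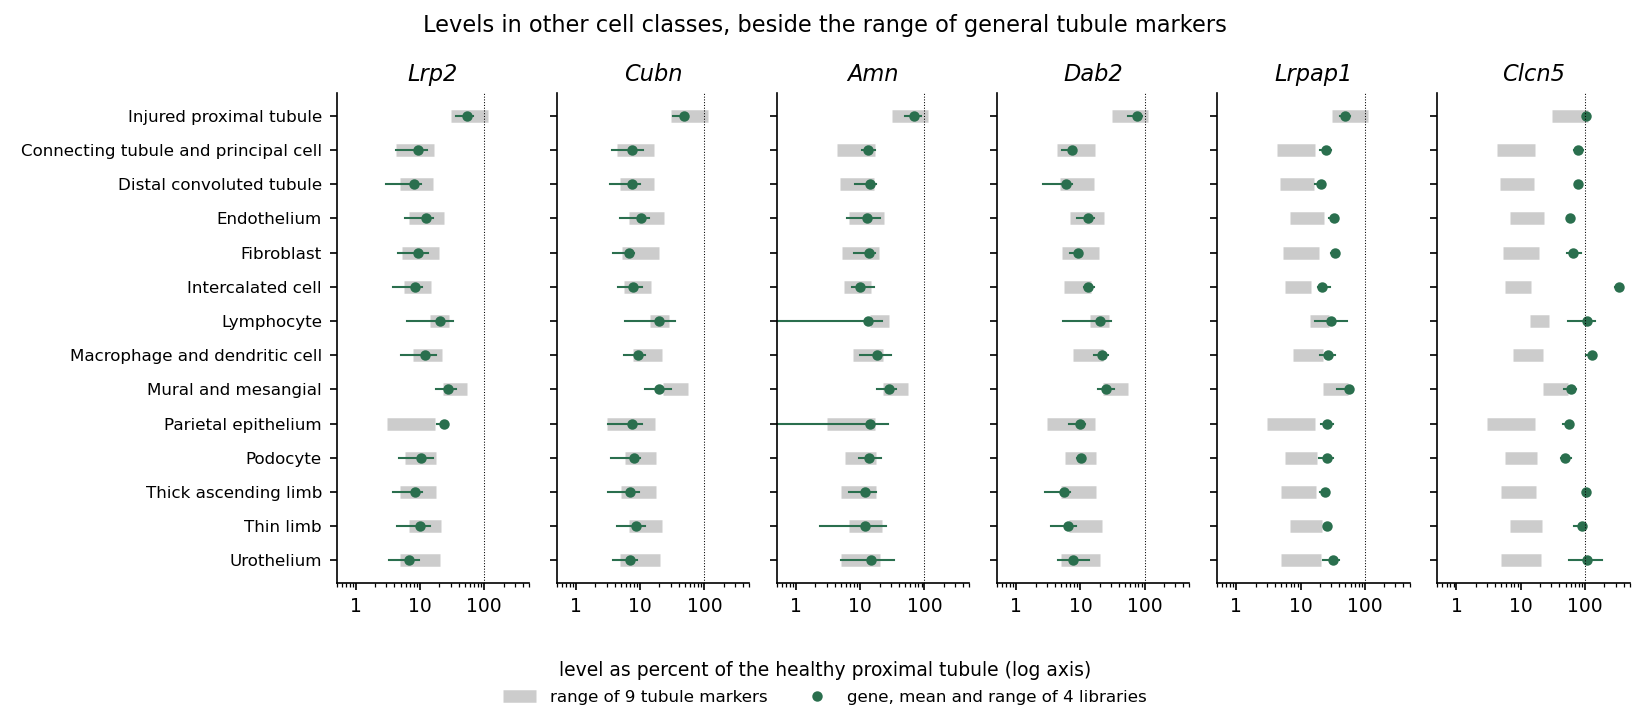
Level of each gene in each cell class as percent of its level in healthy proximal tubule nuclei (x axis, log scale, dotted line at 100 percent); points are means and thin lines ranges over 4 libraries, cut at 0.5 percent, and grey bars are the range over 9 general tubule markers. Lrp2 and Cubn lie near the grey bars in most classes, Lrp2 in parietal epithelium lies above them, and Clcn5 lies far to the right in intercalated cells.

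Lrp2 in parietal epithelium, the lining of Bowman's capsule, was at 401 and 449 CPM in losartan libraries and 386 and 298 CPM in untreated libraries. That was 23.3% of its healthy tubule level, with a range of 18.4% to 26.9%, beside a median of 7.28% and a highest value of 16.9% for the tubule markers, and Lrp2 exceeded all 9 markers in 3 of 4 libraries. This class held 56 and 60 nuclei in losartan libraries and 67 and 107 in untreated libraries. Dab2 was at 21.6% in macrophages and dendritic cells and 13.3% in intercalated cells, above all 9 markers in 2 of 4 libraries in each. Lrpap1 was at 20.7% to 56.2% in the classes outside the tubule with all 4 libraries, above the tubule markers in most. Lrp2 and Cubn otherwise stayed near the markers, as in the thick ascending limb, where Lrp2 was at 8.34% beside a marker median of 8.47%.

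The losartan effect on the 6 genes was tested in 11 further classes, 61 tests in all, since Amn was below the count filter in 5 classes. Only mural and mesangial nuclei had calls, where 2.67% of 8987 genes passed and 2 of the 6 did. In the 10 others, none of the genes tested passed, and the share of all genes was 0.505% in the thick ascending limb, 0.323% in podocytes, 0.13% in the distal convoluted tubule, 0.0229% in fibroblasts, 0.0198% in parietal epithelium, 0.0103% in intercalated cells and 0 in the remaining classes. Dab2 was at 1039 and 1036 CPM in losartan libraries and 550 and 465 CPM in untreated libraries, a log2 fold change of 1.0 (SE 0.16, adjusted p = 0.0251), and Lrp2 at 535 and 608 CPM in losartan libraries and 355 and 288 CPM in untreated libraries, a log2 fold change of 0.80 (SE 0.18, adjusted p = 0.0487). These nuclei also held the 9 general tubule markers at a median of 26.3% of the tubule level, beside 27.1% for Lrp2 and 25.4% for Dab2, and neither call held when doublets were kept. Without untreated replicate 1, which leaves a lone untreated library, the folds here were 1.12 for Dab2 and 0.95 for Lrp2. Calls also appeared in the other classes in that fit. Without losartan replicate 2, Dab2 was at 1.0 and Lrp2 was no longer called. The part of tubule RNA in this result was not tested.

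The genes whose pattern across 18 cell classes and tubule segments was most like each member were named as a description, by Pearson's r of log2(CPM + 1) among 14200 genes. The classes share libraries and depth. The closest to Cubn were Abcc2, with r 0.992, Cyp2j5 and Pdzk1, each with 0.990. Closest to Lrp2 were BC025446, Slco1a6 and Aass, with 0.979, 0.972 and 0.971. Dab2 was closest to the phosphate transporter gene Slc34a1 and to Dnajc13, each with 0.953, and to Lpar3 with 0.951. Amn was closest to Gm28863, Agxt2 and Tkfc, with 0.974, 0.965 and 0.962, and Lrpap1 to Hykk, Slc16a9 and Acsm1, with 0.975, 0.965 and 0.964. Clcn5 was closest to 2 subunit genes of the vacuolar proton pump, Atp6v0b with 0.915 and Atp6v1d with 0.868, and to Dmxl1 with 0.868. Lrp2 and Cubn had r 0.957 with each other, and Clcn5 had r between -0.055 and 0.245 with the other members.

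The other genes of the uptake pathway were counted over 7 lists of 106 genes, with values as log2 fold changes. Between S3 and S1, where 18.7% of all genes fell and 19.8% rose, lysosome genes were mostly lower: of 16 tested, 12 fell and 3 rose, with a median of -0.45, beside 0.01 for all genes. The lysosomal enzyme genes Hexa, Ctsa and Ctsb were at -2.02, -1.20 and -0.82, and the cystine exporter gene Ctns at -0.78. Among endosome acidification genes, 9 of 20 fell and 2 rose, with Clcn6, a relative of Clcn5, at -1.03 and the proton pump subunit genes Atp6v0d1 and Atp6v1e1 at -0.70 and -0.58. Of coat and adaptor genes, 7 of 20 fell and 1 rose, among them Eps15 and Ap2a2, at -0.61 and -0.46, and the clathrin heavy chain gene Cltc, at -0.29. Of endosome sorting genes, 5 of 16 fell and 4 rose, with Rab38 at 2.16 and Rab7 at -0.40. Of genes that handle ligands after uptake, 6 of 11 fell and 1 rose. The vitamin D enzyme genes Cyp24a1 and Cyp27b1 were at -2.48 and -3.26, the cobalamin carrier gene Tcn2 at -1.03 and the vitamin D carrier gene Gc at 1.09. Of other LDL receptor family genes, 5 of 13 fell and 3 rose, with Lrp8 at 2.38, Lrp6 at 0.47 and Vldlr at -0.75. Of transcription factor and receptor genes of the tubule, 4 of 9 fell and 4 rose, with Ppara at -1.11, the angiotensin receptor gene Agtr1a at -0.91 and Hnf4g at 0.99.

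Between injured and healthy nuclei 13.9% of all genes fell and 14.7% rose. Of coat and adaptor genes, 2 of 20 fell and 1 rose, with Inpp5b at -0.68 and Ap2b1 at 0.26. Of sorting genes, 4 of 16 fell and none rose, and of acidification genes, 5 of 20 fell and none rose, with the sodium and proton exchanger gene Slc9a3 at -0.78 and Clcn3 at -0.41. Of lysosome genes, 4 of 16 fell and 1 rose, the cathepsin D gene Ctsd, at 0.45. Of ligand handling genes, 5 of 11 fell and 1 rose, with Cyp24a1 at -1.02, Tcn2 at -0.84, the vitamin D receptor gene Vdr at -0.65 and the folate receptor gene Folr1 at -0.61. Of the transcription factor genes, 5 of 9 fell and none rose, with Ppara at -0.76, Hnf4a at -0.67 and Esrra at -0.57. Of other LDL receptor family genes, 1 of 13 fell, Lrp4, at -0.71. Hnf4a is also one of the general tubule markers and Lcn2 one of the injury markers. The medians of all genes were 0.01 between S3 and S1 and -0.01 between injured and healthy nuclei. No gene of the 7 lists was called under losartan in healthy, S1, S2, S3 or injured nuclei.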

How the data were processed

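The unit of the deposited matrices is the count of UMIs per gene and nucleus, not normalized. The submitters' processing notes named Bowtie 0.12.2 and mm10, with no role or order given. The version Cell Ranger 5.0.0 was read from the header of a deposited matrix. How reads were assigned by strand was not given in the sources used here. Flash-frozen kidneys gave nuclei by a kit and libraries on the 10x Chromium system, per the labels' protocols.

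Barcodes needed at least 500 UMIs and 300 genes and at most 10% mitochondrial UMIs. Doublets were removed by a scanpy 1.11.5 caller, at a fixed rate of 0.8% per 1000 barcodes in 3 libraries where its automatic cut had not worked, leaving 35931 nuclei. Clustering gave 38 clusters, of which 35 were named from marker lists in 16 classes. The tubule was sub-clustered on genes standardised within library, after a first run without it had followed the libraries. A segment name needed a lead of 0.5 over the next marker list and a median depth under 1.5 times that of all tubule nuclei. This lead was set at 0.25 first and tightened after levels of the 6 genes had been seen, and 0.25 was kept as an alternative.

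Counts were summed per library and class and tested with edgeR 4.0.16 (TMM scaling, quasi-likelihood, Benjamini-Hochberg over all genes, threshold 0.05) in R 4.3.3, checked on simulated data. Sums needed 20 nuclei a library in the tubule and 50 elsewhere. Treatment fits used sub-clusters, and segment contrasts used marker assignment with the library as a block, where 307 of S1, 495 of S2, 345 of S3 and 198 of injured nuclei lay within 0.1 of the cut. CPM are UMIs per 1000000 UMIs of the summed group. Alternatives were DESeq2 1.42.0, RLE scaling, no filter on low counts, doublets kept, the other grouping, a replicate block and leaving out each library. Shares of nuclei were thinned to 1000 UMIs, with none left out as shallower, and have exact Clopper-Pearson intervals at 95%.

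All 6 genes are named in every class, and of each list the 4 genes with the lowest p at most. One of these genes is not reported here. For likeness, the 3 genes with the highest r among those at 10 CPM or more in a class are named. The 6 genes and the lists were chosen with earlier results of these data known, and the promoter motifs, the antisense gene, the endothelial comparison and the list counts in the segment and injury contrasts were added after the data had been seen. Gene positions are on GRCm38, and promoters come from RefSeq, GRCm38.p6.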

Additional observations from a re-analysis of the deposited data

How the results depend on the processing

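No member was called under losartan in healthy, S2 or S3 tubule nuclei under any alternative run. Exceptions elsewhere were 1 call in S1 and 1 in injured nuclei with no filter on low counts, and 4 in the whole kidney by DESeq2. Leaving out each library gave 0 to 3 calls in injured nuclei and 1 to 28 in the other cell classes, where DESeq2 gave 1, no filter 11 and doublets kept 0, against 2. The difference between segments had 1 call with nuclei assigned by markers. The cause of these shifts was not tested.

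With a replicate block, pairing libraries by number, 4 members were called in the whole kidney, beside 8.65% of genes, and 1 in injured nuclei, beside 1.94%. In the other classes 10 tests were called, in classes where 0.516% to 5.45% of genes passed. The block changed no other count. The labels do not say that numbers pair the libraries, and with 2 pairs the same-numbered libraries deviated together with r 0.348 in the whole kidney and 0.150 in healthy tubule nuclei.

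Directions turned for the following folds, none of them called as reported. Most were near 0, but Amn under losartan in injured nuclei (0.67) and in injured minus healthy nuclei (0.68) was not, and the turned interaction of Dab2 in S3 minus S1 was called (adjusted p = 0.00745). Under losartan in healthy nuclei, Amn (-0.0038) was 0.0027 by DESeq2 and by RLE scaling, 0.0086 with doublets kept and 0.020 with no filter, and Clcn5 (8.59e-04) was -0.072 with nuclei assigned by markers and -0.050 with a naming lead of 0.25. With nuclei assigned by markers, Amn was -0.060 in S1 and -0.16 in injured nuclei, Clcn5 was -0.015 in S2, and the interaction was 0.99 for Dab2 and 0.084 for Lrp2 in S3 minus S1 and -0.052 for Amn in injured minus healthy nuclei. Cubn in S2 against S1 was -0.12 with sub-clusters.

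Leaving out each library moved the losartan fold in healthy nuclei from -0.30 to 0.12 for Cubn, -0.061 to 0.070 for Amn and -0.072 to 0.092 for Clcn5. In S1 it ran from -0.0039 to 0.22 for Lrp2, -0.069 to 0.29 for Cubn and -0.13 to 0.013 for Clcn5. In S2 it ran from -0.53 to 0.067 for Cubn, -0.12 to 0.013 for Amn and -0.056 to 0.18 for Clcn5. In S3 it ran from -0.020 to 0.14 for Lrp2 and -0.31 to 0.18 for Cubn, and in injured nuclei from -0.20 to 0.86 for Cubn. Cubn in S2 against S1 ran from -0.040 to 0.18. The interaction S2 minus S1 ran from -0.13 to 0.24 for Lrp2, -0.26 to 0.038 for Dab2, -0.015 to 0.14 for Lrpap1 and -0.020 to 0.25 for Clcn5, and S3 minus S1 from -0.19 to 0.12 for Lrp2, -0.53 to 0.20 for Cubn and -0.18 to 0.056 for Dab2.

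The mean share of healthy nuclei with an Lrp2 UMI was 91.6% thinned to 2000 UMIs and 97.7% unthinned, against 74.5%. With 2 libraries a group, small folds were not detectable. Amn, at 17 to 236 UMIs per library in marker-assigned injured nuclei, had the lowest counts of the 6 genes there.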
